A study of Mus musculus with 2 samples.

Results

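Mir191, Mir425 and Mir149 are 3 of the 2202 miRNA genes counted in short RNA libraries from mouse heart. They were chosen for their measured abundance and their position within longer transcripts, so their levels are given as a description, with no test. The first pair forms a cluster on chromosome 9, and Mir149 lies on chromosome 1. The libraries were made by microRNA-seq, the sequencing of short RNAs, from total RNA of heart tissue. The mice were male B6CASTF1/J, an F1 hybrid, aged 36 days by the age label, though another field writes months. Both libraries belong to a single untreated group and are numbered as biological replicates from differently numbered males that carry the same donor record. The SDs below therefore measure only the spread between these samples, which may be technical, and the p-values rest on counting error alone.

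A miRNA is cut from a hairpin within a longer primary transcript, and 1 arm of the hairpin, or both, can be loaded into an Argonaute protein. The loaded strand pairs with target transcripts mainly through its seed, bases 2 to 8. A miRNA inside a host gene on the same strand is often made from the host's own transcript, and clustered miRNAs are often cut from 1 shared transcript. miR-191 is known as a broadly expressed miRNA that is used as a reference for small RNA measurements, and in mouse erythroblasts as a regulator of maturation. miR-425 is known in human for repressing NPPA, the gene of atrial natriuretic peptide. miR-149 is known in human endothelial cells for acting on its own host transcript, GPC1, which encodes glypican-1, a heparan sulfate proteoglycan of the cell surface.

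The mature arms of the members are shown first, because the tables sum all reads of a hairpin and the arms are therefore not separated in any level below. Sequences are from RefSeq (GRCm38.p6), 5′ to 3′, with the seed in capitals.
miR-191-5p: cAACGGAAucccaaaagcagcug
miR-191-3p: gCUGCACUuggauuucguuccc
miR-425-5p: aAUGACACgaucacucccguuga
miR-425-3p: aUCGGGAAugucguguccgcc
miR-149-5p: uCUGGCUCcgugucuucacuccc
miR-149-3p: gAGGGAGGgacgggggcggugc
No seed was shared among the 6 arms. The seed of miR-425-5p was shared with 1 other mature miRNA of the RefSeq table, miR-489-3p, known in mouse from resting muscle stem cells and shown here for comparison.
miR-489-3p: aAUGACACcacauauauggcagc
The seed of miR-149-3p was shared with 3 other mature miRNAs. The seeds of the other 4 arms were found in no other gene of that table, which held mature sequences for 1018 of the 2202 counted genes, matched by symbol.

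The hairpins are shown next, with both mature arms in capitals.
Mir191: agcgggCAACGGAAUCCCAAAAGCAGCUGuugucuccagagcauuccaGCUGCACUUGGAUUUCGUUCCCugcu
Mir425: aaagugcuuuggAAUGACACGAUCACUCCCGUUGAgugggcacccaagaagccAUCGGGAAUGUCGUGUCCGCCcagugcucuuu
Mir149: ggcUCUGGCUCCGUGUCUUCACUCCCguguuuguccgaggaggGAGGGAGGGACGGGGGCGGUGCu
The hairpin of Mir149 was rich in G and C, at 68.2%, and only 2 of the 141 genes with a mean of 100 CPM or more had a higher share (CPM are counts per 1000000 sense-strand reads assigned to miRNA genes). Mir191 and Mir425 each stood at 54.1%, near the median of 50.5% for those 141 genes. The longest run shared by the hairpins of Mir149 and Mir425 was UCACUCCCGU, 10 nt long, which lies inside miR-425-5p and runs from the end of miR-149-5p into the loop. Runs of that length or longer occurred in 1.81% of the 9870 hairpin pairs among the 141 genes. The runs that Mir191 shared with either were 5 nt long, and 98.6% of pairs had one as long. None of the 3 hairpins had a run of 22 nt in common with another annotated hairpin read 5′ to 3′. Their mature arms are 21 to 23 nt long, and shorter runs were not searched over all annotated hairpins.

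The annotation used for the counts (GENCODE M21, mm10) placed the 3 genes in different kinds of host. Mir149 (ENSMUSG00000065470.1, chr1:92850378-92850443, plus strand) lay in an intron of the protein-coding gene Gpc1, between an exon ending at 92835677 and one starting at 92853198. Mir191 (ENSMUSG00000105497.1, chr9:108568319-108568392, plus strand) and Mir425 (ENSMUSG00000065579.1, chr9:108568777-108568861, plus strand) lay within the non-coding gene 4833445I07Rik, with 384 bases between the hairpins. One transcript of that gene is a single exon from 108567533 to 108569174, and both hairpins lie inside it. The gene also has shorter annotated exons. Mir191 falls between one that ends at 108568180 and one that starts at 108568484, and Mir425 begins just past the latter, which ends at 108568774. Exons were read per gene, so whether the shorter ones are joined in 1 transcript was not checked. So the pair lies inside an annotated exon, and is not simply intronic. The protein-coding gene Dalrd3, named for its DALR anticodon-binding domain and commonly given as the host of the pair, starts at 108569886 in GENCODE M21, downstream of both hairpins. Its RefSeq span on GRCm38.p6, which runs from 108567484 to 108572773, does include them. No host transcript was measured here.

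**Figure D1:**
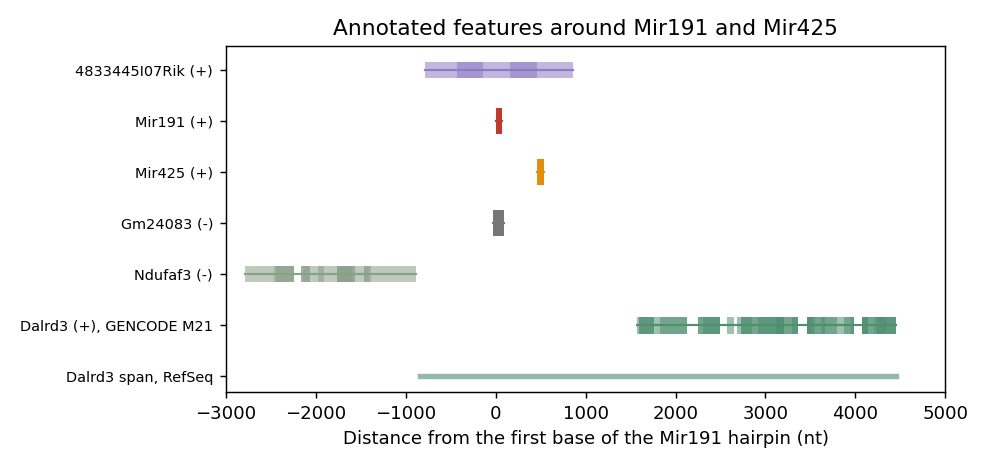
Annotated features around Mir191 and Mir425, by distance in nt from the first base of the Mir191 hairpin; bars are exons or whole miRNA genes, lines are gene spans, and the sign after each name is the strand. Both hairpins lie within 4833445I07Rik and upstream of the GENCODE M21 start of Dalrd3, but inside its RefSeq span, and Gm24083 covers Mir191 on the other strand.

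A further miRNA gene, Gm24083 (chr9:108568295-108568414), is annotated on the minus strand opposite Mir191 and covers it whole. It is shown from GENCODE M21, with the part that is the reverse complement of the Mir191 hairpin in capitals.
Gm24083: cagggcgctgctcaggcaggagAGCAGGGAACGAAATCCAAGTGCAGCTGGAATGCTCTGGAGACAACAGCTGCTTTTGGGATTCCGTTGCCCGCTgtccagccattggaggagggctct
Mir191 had reads in the stranded column alone. With both strands counted together, Mir191 stood at 0 reads in both libraries, against 23591 and 22295 reads on its own strand in libraries 1 and 2. Its sense-strand reads equal 5.45% and 4.95% of the reads listed as ambiguous in the column for both strands, 432966 and 450849. Gm24083 itself had 0 sense reads in each library, a count that allows a level of at most 1.5 CPM in library 1 and 1.61 in library 2 (3 counts, counting error only). Of 64 genes with a miRNA gene opposite, 14 had a mean of 100 CPM or more, and 13 of these 14 were at 0 in both libraries in that column. Mir425 and Mir149 have no miRNA gene opposite, and their counts were equal in both columns. None of the 3 members had an antisense read. The sense-strand column was used throughout.

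Depth was similar in the libraries. Library 1 held 1999362 sense-strand reads assigned to miRNA genes and library 2 held 1862526, or 36.5% and 38.1% of all reads. Reads that mapped to several places, 41.5% and 42.9% of all reads, were assigned to no gene. The cardiac muscle miRNAs checked the tissue label. All 7 had reads, 4 of them at a mean of 10 CPM or more, and their summed level was 8556 CPM in library 1 and 6697 in library 2, mostly from Mir208a and Mir499, with Mir1a-1 and the Mir133a loci within a few reads of 0. The Mir1a and Mir133a loci each share 22 nt with another hairpin, so their reads can be among those mapped to several places, and their low counts set no limit on their levels. Summed levels of the other lists, library 1 first, were 48924 and 63819 CPM for the endothelial gene Mir126a and 39517 and 38697 for the 2 smooth muscle genes. They were 5357 and 4950 CPM for 4 leukocyte genes, 2452 and 1970 for 3 erythroid genes, and 460.1 and 947.1 for 7 epithelial genes. The erythroid gene Mir486 shares 22 nt with another hairpin, so the erythroid sums can be too low. The 8 neuronal genes summed to 186.1 and 135.3 CPM with 5 of them at 0, and since all 8 share 22 nt with another hairpin this sum sets no limit either. Mir122 of liver stood at 118.5 and 13.4, and the 2 skeletal muscle genes at 98.5 and 5.4. The label names heart tissue and no cell type, so fewer cells of a type and less RNA per cell cannot be told apart.

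Mir149 was the most abundant of the 3 genes. It had 45015 reads in library 1 and 32451 in library 2, or 22515 CPM (exact 95% interval 22309 to 22721) and 17423 CPM (17236 to 17612). Library 1 was the higher, and the intervals, which cover counting error only, did not overlap. The mean was 19969 ± 3600 CPM (SD, n = 2), the 14th highest of all genes. It was 189 times the median of 105 CPM over the 276 genes at 10 CPM or more in at least 1 library. This rank, like those of Mir191 and Mir425 below, rests on reads assigned to a gene. Genes that lose reads to several places can stand too low, so the members can stand too near the top. In the order of means Mir149 stood between Mir26b at 26041 ± 6190 CPM, from a phosphatase gene, and Mir30d at 13606 ± 5580 CPM. The range of each neighbour over the libraries overlapped that of Mir149. Within each library Mir26b was the higher, at 30420 CPM in library 1 and 21661 in library 2. Mir30d lay below Mir149 in library 1, at 9664 CPM, and just above it in library 2, at 17549 CPM, so that order was not resolved.

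Mir191 followed at about the same level in both libraries. Its 23591 and 22295 reads gave 11799 CPM (exact 95% interval 11650 to 11950) and 11970 CPM (11815 to 12128), which overlap. The mean was 11885 ± 121 CPM (SD, n = 2), rank 16 of 2202 genes. Below it stood Mir30a at 10085 ± 180 CPM and Mir125a at 10073 ± 626 CPM, whose values in both libraries were lower than either value of Mir191. Mir30d, directly above in the order of means, ranged from 9664 to 17549 CPM and overlapped it.

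Mir425 was much lower than its neighbour on the chromosome. It had 1647 and 1504 reads, or 823.8 CPM (784.5 to 864.5) and 807.5 CPM (767.2 to 849.4). The mean was 815.6 ± 11.5 CPM (SD, n = 2), rank 75, still 7.74 times the median of the genes at 10 CPM or more. Directly around it in the order of means were Mir30c-2 at 932 ± 6.03 CPM, the red blood cell miRNA Mir451a at 892 ± 316, Mir467d at 814 ± 126 and Mir185 at 785 ± 898. The last 3 overlapped Mir425 between libraries, while both values of Mir30c-2 were higher. Together the 3 members took 3.51% of assigned reads in library 1 and 3.02% in library 2, a mean of 3.27% ± 0.349 (SD, n = 2).

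**Figure D2:**
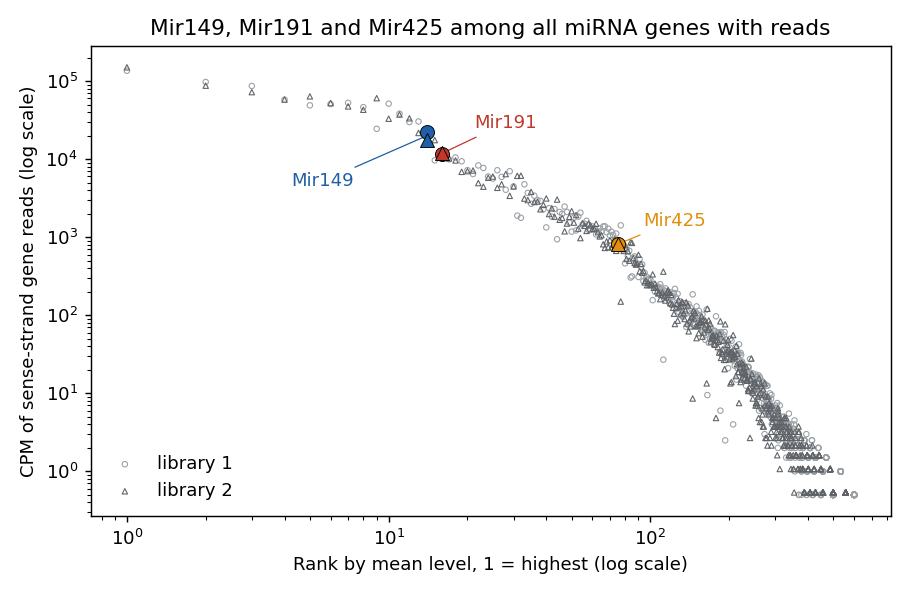
Level of each miRNA gene with reads, in CPM of sense-strand gene reads (log scale), against its rank by mean level (log scale); circles are library 1 and triangles library 2. Mir149 lies at rank 14, Mir191 at rank 16 and Mir425 at rank 75, and the symbols of Mir191 and Mir425 nearly coincide between the libraries.

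Among genes with the same kind of host in GENCODE M21, the 3 members also stood near the top. Inside a protein-coding gene on the same strand lie 969 miRNA genes, of which 126 (13.0%) reached 10 CPM in at least 1 library. Mir149 had the 8th highest mean among them, and the 6th highest of the 724 that overlap no exon of their host. Inside a non-coding host alone lie 210 genes, of which 59 (28.1%) reached 10 CPM, and Mir191 was 6th and Mir425 16th of these 210. Of the 1023 genes with no host on their strand, 91 (8.90%) did so. Since the members were chosen by level, these places describe them and test nothing. The places also rest on assigned reads, so genes that lose reads to several places can stand too low. By the RefSeq span of Dalrd3, Mir191 and Mir425 would lie inside a protein-coding gene, and their places in that class were not computed.

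The seed relatives of the members contributed almost no reads. Mir489, whose 3p arm has the seed of miR-425-5p, had 0 reads in both libraries. The limits of 1.5 and 1.61 CPM above apply to it, against 815.6 CPM for Mir425. Of the genes with the seed of miR-149-3p, Mir1943 had 11 and 12 reads (mean 5.97 CPM) and Mir7016 had 3 and 1 (mean 1.02 CPM). The other pair, Gm27775 and Gm27740, both annotated as sources of miR-6967, had 0 reads. They share 22 nt with each other or another hairpin, so for them 0 sets no limit. No seed relative reached a mean of 10 CPM.

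The comparison of the libraries asked how reproducible the members' levels were. Mir191 and Mir425 did not pass the test, whereas Mir149 was lower in library 2 by less than 2-fold. The exact two-sided conditional binomial test compared each gene's reads with the ratio of assigned totals for the 344 genes with 10 or more reads summed, with Benjamini-Hochberg adjustment. It compares these libraries, not conditions. For Mir191 the log2 ratio of library 2 over library 1 was 0.02 (adjusted p = 0.199, exact test), a CPM ratio of 1.01 with an exact 95% interval of 0.996 to 1.03. For Mir425 it was -0.03 (adjusted p = 0.689, exact test), a CPM ratio of 0.980 with an interval of 0.913 to 1.05. For Mir149 it was -0.37 (adjusted p = 3.59e-273, exact test), a CPM ratio of 0.774 with an interval of 0.763 to 0.785.

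By adjusted p under 0.05 and a 2-fold ratio together, 0 of the 3 members were called, where 59 of 344 tested genes (17.2%) were. By adjusted p alone, and likewise by unadjusted p under 0.05, 1 of 3 passed, Mir149, against 54.1% of tested genes by adjusted p. Passing depends on reads, and with 100 or more reads summed 156 of 216 genes passed the adjusted p. At the depth of Mir149 counting error is small, so its p says little of its spread between hearts. Set beside the 69 genes whose mean reached 1000 CPM, whose median absolute log2 ratio was 0.33, the difference of Mir149 was larger than that of 39 genes and that of Mir191 larger than that of 2. Among the 141 genes whose mean reached 100 CPM, 7 had a smaller absolute log2 ratio than Mir425. The summed level of the cardiac muscle list had a log2 ratio of -0.35, but its main genes moved in opposite directions, Mir208a by -1.05 and Mir499 by 1.23. Mir126a moved by 0.38, and the summed ratios of all marker lists ran from -4.2 for skeletal muscle to 1.04 for epithelial genes. The skeletal muscle ratio rests mostly on Mir206, with 194 reads in library 1 and 9 in library 2. In the epithelial list Mir429 moved against the sum, by -0.63, so a summed ratio does not stand for each gene of its list. The part of cell make-up in the difference of Mir149 was not tested.

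These ratios depend on the scaling, since the median tested gene lay at -0.19. The TMM method (a trimmed mean of M-values) added 0.22 to every log2 ratio. Mir191 then stood at 0.24 (adjusted p = 2.44e-72, exact test), Mir425 at 0.20 (adjusted p = 0.000454) and Mir149 at -0.15 (adjusted p = 3.11e-43). Under that scaling all 3 passed the adjusted p and none reached 2-fold, and Mir425 turned from slightly lower to higher in library 2. With scaling to totals, 19 of the 344 genes (5.52%) were called as higher in library 2 and 40 (11.6%) as lower, and with TMM the split was 30 against 27.

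**Figure D3:**
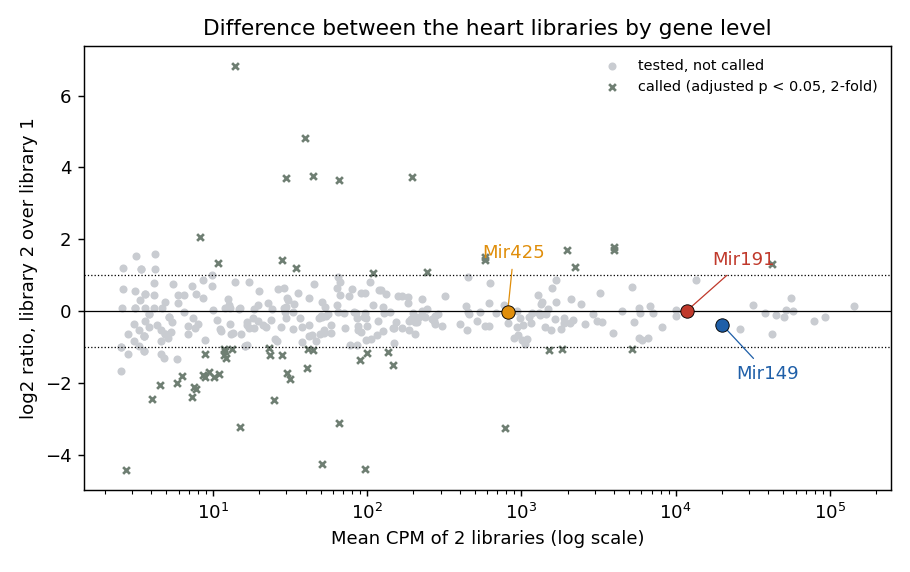
Log2 ratio of library 2 over library 1 for the 344 tested genes against mean CPM (log scale); crosses are genes called by adjusted p under 0.05 and 2-fold, and dotted lines mark 2-fold. Mir191 (0.02) and Mir425 (-0.03) lie at 0 and Mir149 (-0.37) between 0 and the lower dotted line.

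The ratio of Mir191 to Mir425 within a library does not depend on scaling, and it hardly moved. Library 1 gave 14.3 (exact 95% interval 13.6 to 15.1) and library 2 gave 14.8 (14.1 to 15.6), with a mean log2 ratio of 3.87 ± 0.035 (SD, n = 2). The intervals overlap. Mir149 to Mir191 was 1.91 (1.88 to 1.94) and 1.46 (1.43 to 1.48), and Mir149 to Mir425 was 27.3 (26.0 to 28.7) and 21.6 (20.5 to 22.7). The intervals of these ratios across chromosomes did not overlap between libraries. Ligation and amplification can favour some short RNAs over others, so a ratio of reads is not a ratio of molecules.

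Other pairs of adjacent same-strand miRNA genes give the scale for the Mir191 and Mir425 pair. With Mir191 and Mir425 included, there were 26 such pairs within 10 kb in which the mean of each gene reached 100 CPM. The pairs are not independent, since some share a gene. Their mean log2 ratios of the higher to the lower gene ran from 0.22 to 7.72 with a median of 3.58, and 9 pairs had a larger one than the 3.87 of Mir191 and Mir425. The log2 ratio of a pair moved between libraries by a median of 0.42, and by 0.05 for Mir191 and Mir425. Only 2 of 26 pairs moved less, Mirlet7d with Mirlet7f-1 and Mir99a with Mirlet7c-1, named after their values were seen. In each of these a gene shares 22 nt with another hairpin, so its reads can be lost to several places. Of the 15 pairs without such sharing, again with Mir191 and Mir425 included, 3 had a larger ratio and 0 moved less. No test was made of this order, and it rests on 2 libraries.

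**Figure D4:**
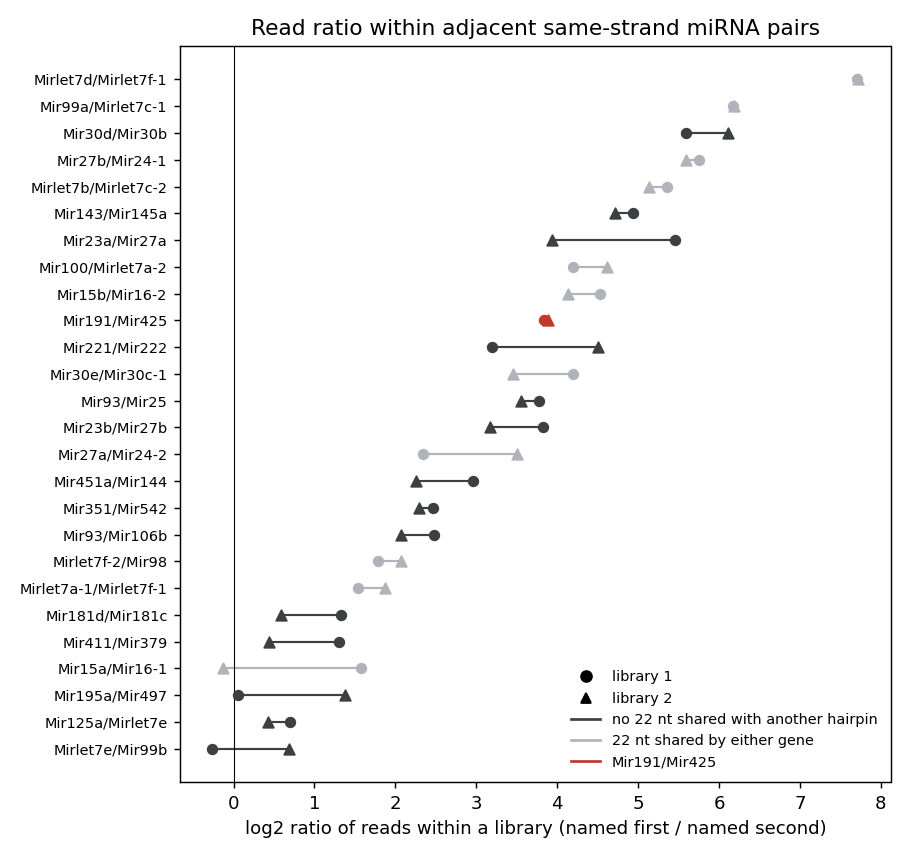
Log2 ratio of reads within each library for 26 adjacent same-strand pairs, the gene with the higher mean named first; circles are library 1, triangles library 2, and the line between them is the change. The symbols of Mir191 and Mir425 (red, 3.84 and 3.89) nearly coincide, while most other pairs are drawn apart.

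Mir191 and Mir425 belong to a list of 10 genes of miRNAs in use as references for small RNA quantification. Of the 9 with enough reads to test, 1 was called, Mir103-2 with 29 and 8 reads, beside 17.2% of all tested genes. By adjusted p alone 7 of the 9 passed, beside 54.1% of all tested genes and 156 of the 216 with 100 or more reads summed. The median absolute log2 ratio of the list was 0.52, against 0.46 over all tested genes, which include genes with few reads. It was 0.34 over the genes with a mean of 100 CPM or more. All tested genes of the list but Mir103-2 stood at that level, so the list varied more than genes of like level. With scaling to totals, the 2 members had the smallest absolute log2 ratios of the list. Mir423 moved by -0.27 at 3115 ± 410 CPM and Mir484 by -0.43 at 935 ± 194 CPM. Mir93 (5754 ± 2060 CPM) and Mir25 (447 ± 113 CPM), both inside the DNA replication gene Mcm7, moved by -0.75 and -0.52. The Mir16 loci moved the other way, Mir16-1 by 0.78 at 629 ± 235 CPM and Mir16-2 by 0.59 at 124 ± 35.5 CPM. TMM scaling adds 0.22 to each of these log2 ratios, and Mir423 then lies nearer to 0 than either member. The Mir16 and Mir103 loci share 22 nt with other hairpins, and Mir103-1 had 6 reads in all and was not tested.

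The genes most like each member in level and in ratio between libraries were found by Euclidean distance on the log2 mean CPM and the log2 ratio, over these 2 libraries. For Mir191 they were Mir30a (distance 0.24), Mir125a (0.28) and Mir652 (0.72). For Mir425 they were Mir30c-2 (0.20), Mirlet7a-1 (0.22) and Mir10b (0.26). For Mir149 they were Mir26b (0.40), Mir191 (0.84) and Mir99a (0.85). Mir26b was also lower in library 2, with a log2 ratio of -0.49. That ratio is part of the distance, so this likeness follows from the choice. Of the 69 genes with a mean of 1000 CPM or more, 42 were lower in library 2. The measure rests on 2 libraries, and how many genes lie as near to each member by it was not counted.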

How the data were processed

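MicroRNA-seq of mouse heart gave 2 libraries, which form 1 group. The deposited tables hold whole-number read counts per miRNA gene, not normalized by the authors, in 3 columns without a header (both strands, sense and antisense, as read from the values). Per the text deposited beside them, mm10 and annotation M21 were used; the sources used here name neither aligner nor counter. The 4 status rows, 63.5% and 61.9% of reads, were left out of totals. Symbols, positions and hosts came from GENCODE M21, which matched all 2202 genes.

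Counts were scaled to CPM of sense-strand gene reads. Shares have exact Clopper-Pearson 95% intervals and ratios exact binomial ones. Log2 ratios had 0.5 added to each count. Libraries were compared by the exact conditional binomial test (SciPy 1.17.1), whose code was tested on simulated data. Alternatives used TMM (edgeR 4.0.16) and DESeq2 1.42.0 size factors. The labels mention no molecular identifiers, so intervals and floors cover counting error only. Named genes are the members, the 2 neighbours on each side in the order of means, seed relatives, miRNA genes within 10 kb, the reference list and the 3 most alike genes. Members, lists and rules were chosen with earlier results of these data known. Marker lists were cardiac muscle, endothelial, smooth muscle, leukocyte, erythroid, epithelial, neuronal, hepatic and skeletal muscle.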

Additional observations from a re-analysis of the deposited data

Results flagged for a closer look

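Reads antisense to 1 gene beside the members were flagged, without a search over other genes. Gm24083, annotated opposite Mir191, had 23591 reads on its opposite strand in library 1 and 22295 in library 2, above the 3 counts that a count of 0 allows. These numbers equal the sense-strand reads of Mir191 in each library, and Mir191 lies whole within Gm24083 on that strand. With 1 group of 2 libraries, there was no test of outlying samples or of differences between groups.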

How the results depend on the processing

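No paired analysis was possible because the series has 1 group. Levels moved with the denominator. Mir191, Mir425 and Mir149 stood at 0, 1058 and 25862 CPM with both strands counted together, and at 4431, 304.0 and 7424 per 1000000 of all reads. Without the most abundant gene in the total Mir191 stood at 13870 and Mir425 at 951.8 CPM, and over genes sharing no 22 nt at 12140 and 833.2, while Mir149 moved by less than its SD in these. Leaving out either replicate left Mir191 at 11799 to 11970, Mir425 at 807.5 to 823.8 and Mir149 at 17423 to 22515 CPM. The log2 ratios within a library then ran from 3.84 to 3.89 for Mir191 to Mir425, 0.54 to 0.93 for Mir149 to Mir191 and 4.43 to 4.77 for Mir149 to Mir425. The log2 ratio of Mir425 between libraries, -0.03, turned to 0.20 with TMM, 0.16 with DESeq2 size factors (adjusted p = 0.00544, exact test), 0.02 with both strands and 0.03 with all reads. Its adjusted p ran from 0.000454 to 0.989 over the settings tried. Mir191 stayed between 0.02 and 0.24 where it had reads, with adjusted p from 2.44e-72 to 0.348, and Mir149 between -0.37 and -0.15, and neither reached 2-fold in any of these settings. The count of called genes, 59, went to 33 with 100 counts summed, by fewer genes tested, to 105 at 1.5-fold and to 186 with no fold threshold. The 9 pairs with a larger ratio than Mir191 to Mir425 and the 2 that moved less became 3 and 0 without genes sharing 22 nt, an alternative chosen after seeing the data.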
